A study of Mus musculus with 6 samples.

Results

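The genes described here are 54 genes of DNA replication: those that license origins, unwind and copy DNA at the fork, and make deoxynucleotides. They were chosen by name, and every probe whose platform symbol, or current symbol through its Entrez identifier, was one of these genes was taken. This gave 111 probes for all 54 genes, out of 45281 probes and 19057 named genes on the array. Of the 54 genes, 48 had a probe above background on enough arrays to be tested, among 9561 genes tested in all. Pclaf was found under its current symbol.

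The 6 single-colour Illumina arrays held RNA of 2 FACS-sorted populations from the bone marrow of female C57BL/6 mice aged 7 weeks. One group was CCR9- pDC-like cells, named as a common precursor of dendritic cells in the title of the series (3 arrays, called precursors here). The other was CCR9+ plasmacytoid dendritic cells (pDCs, 3 arrays), the cells known for type I interferon production, sorted on the chemokine receptor CCR9. The labels name no transgene and no treatment. There were 3 independent isolations, so p-values measure the spread between isolations. How many mice each one pooled, and which markers other than CCR9 set the gates, is not stated in these sources.

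A cell copies its DNA once per division in ordered steps. In the gap phase before S phase, the origin recognition complex, Cdc6 and Cdt1 load the ring-shaped MCM helicase onto origins, which is called licensing. In S phase the kinase Cdc7 with Dbf4, together with cyclin-dependent kinases, turns the loaded ring into an active helicase with Cdc45 and the GINS complex. Primase with polymerase alpha then starts new strands, and other polymerases copy both strands with the sliding clamp PCNA. Many of these genes are known targets of E2F transcription factors and are transcribed more in cells that enter S phase. Dendritic cell progenitors of the bone marrow are known to divide, and mature pDCs are known to divide rarely.

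Replication genes were higher in the CCR9- precursors than in the CCR9+ pDCs, with at least 1 gene called higher in each of 10 role groups. Of the 48 genes tested, 45 rose, none fell and 3 did not pass (limma, adjusted p below 0.05). In the same fit 35.8% of all 9561 genes differed and 18.2% were called higher in precursors. None of the 48 had an unadjusted p below 0.05 in the direction of lower in precursors. The median log2 fold change of the 48 was 1.67, a 3.18-fold difference, while the median of all genes tested was 0.0247. A difference of at least 2-fold was found for 39 of them, where 5.8% of all genes were called that far higher, and one of at least 4-fold for 15, where 1.72% of all genes were. The 3 precursor values lay above the 3 CCR9+ pDC values without overlap for 46 of the 48, as they did for 26.7% of all genes.

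**Figure D1:**
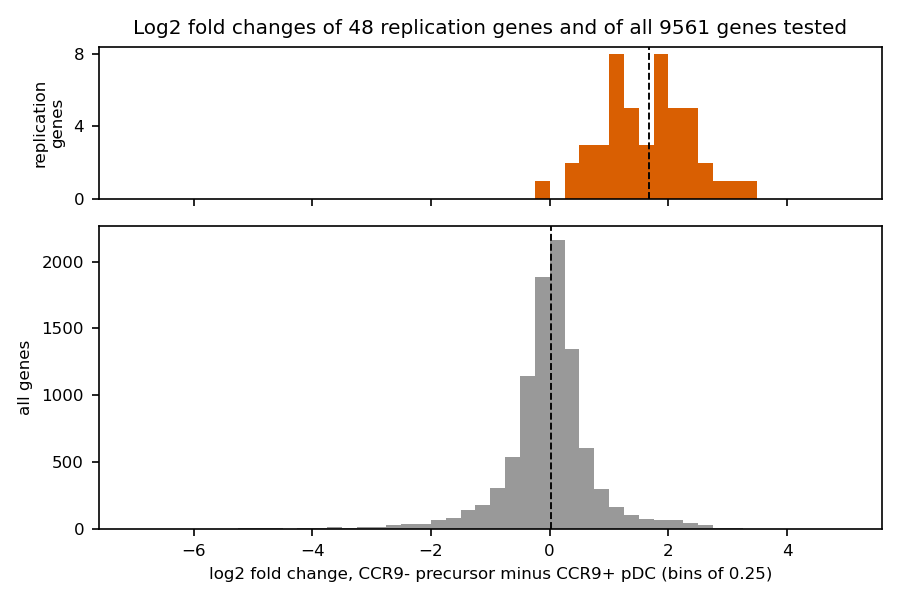
Number of genes (vertical axes) by log2 fold change, CCR9- precursor minus CCR9+ pDC, in bins of 0.25 (horizontal axis), for the 48 replication genes tested (top, Rfc3 at its fitted value) and for all 9561 genes tested (bottom). Dashed lines mark the medians, 1.67 for the replication genes and 0.0247 for all genes.

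For 47 of the 48 genes the probe used was above background on all 6 arrays, and 44 of these 47 rose. The exception was Rfc3, which no CCR9+ pDC array showed above background, so it has only a lower bound. With Rfc3 at that bound the median log2 fold change of the 48 was again 1.67. In bulk RNA, fewer dividing cells in a sort and less of these transcripts per cell cannot be told apart. Signals are log2 normalized intensities throughout, and signals of different probes are not compared with each other, since each probe has its own brightness.

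The members were looked up among RefSeq promoter windows of GRCm38.p6, which run from 250 bases before to 50 bases after a transcript start, because E2F factors are known to bind near the start of replication genes. The words searched, on both strands, were TTTCGCGC, TTTGGCGC, TTTCCCGC and TTTGCCGC. A window was given for 45 members, and 16 of them (35.6%) held at least 1 of these words. Of all 27025 genes with a window 2.60% did, and of the 7825 tested genes with a window 4.73% did. Of the tested genes whose window held a word, 36.8% were called higher in precursors. Among the members, 12 of 13 tested with a word rose, with a median log2 fold change of 1.88, and 25 of 27 tested without one rose, with a median of 1.47; this difference was not tested. CCAAT stood in a window of 55.6% of the members, of 41.1% of all genes and of 43.5% of the tested genes. The mitotic gene element TTTGAA stood in a window of 15.6% of the members, of 20.2% of all genes and of 14.7% of the tested genes.

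Stretches around the words of 6 members are shown, 5 that rose and Orc3, which held a word and did not pass. They are from chr8:75109316-75109407, plus strand (Mcm5), chr1:128359706-128359855, minus strand (Mcm6), chr5:138172001-138172088, minus strand (Mcm7), chr11:98907973-98908060, plus strand (Cdc6), chr9:65890278-65890332, plus strand (Pclaf) and chr4:34614943-34615023, minus strand (Orc3). Capitals mark the E2F words. Each is written 5′ to 3′ on the strand of its gene, and where a word lies on the other strand its reverse complement is in capitals.
Mcm5: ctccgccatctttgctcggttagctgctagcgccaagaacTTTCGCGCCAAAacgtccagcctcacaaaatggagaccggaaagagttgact
Mcm6: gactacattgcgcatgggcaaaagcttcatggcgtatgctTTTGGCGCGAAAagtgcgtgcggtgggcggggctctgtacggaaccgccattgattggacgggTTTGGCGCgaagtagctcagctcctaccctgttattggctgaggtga
Mcm7: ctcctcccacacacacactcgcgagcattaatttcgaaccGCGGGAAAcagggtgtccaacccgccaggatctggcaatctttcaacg
Cdc6: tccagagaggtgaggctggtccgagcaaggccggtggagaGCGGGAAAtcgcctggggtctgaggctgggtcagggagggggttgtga
Pclaf: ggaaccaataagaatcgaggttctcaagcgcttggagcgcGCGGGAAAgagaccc
Orc3: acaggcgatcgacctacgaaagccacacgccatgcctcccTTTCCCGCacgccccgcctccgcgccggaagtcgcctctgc
In Mcm5 a pair of words overlapped on opposite strands, beginning 153 and 149 bases before the start. Mcm6 held 3 words, beginning 110, 106 and 47 bases before the start, of which the first and second overlapped. A second Mcm7 word lay after the start, outside the stretch shown. The word of Pclaf began 5 bases before the start and ran into the transcript. The word of Orc3 began 41 bases before the start, as did that of Gins3, a gene that rose. A match is a match of letters, and no binding was measured.

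The origin recognition complex marks origins and had the smallest median log2 fold change of the 10 role groups, 0.31. Of its 6 genes 4 were tested, 1 rose and 3 did not pass. Orc6 had signals of 10.89, 10.94 and 10.74 in precursors, against 9.37, 9.45 and 9.37 in CCR9+ pDCs. It was 2.75-fold higher in precursors (95% confidence interval of the log2 fold change 1.23 to 1.68, as for all intervals here, limma adjusted p = 6.60e-05). All precursor arrays lay above all CCR9+ pDC arrays.

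The other ORC genes tested did not pass. Orc3 had signals of 8.21, 7.98 and 7.90 in precursors, against 7.71, 7.70 and 7.67 in CCR9+ pDCs. These did not overlap, but the log2 fold change of 0.33 did not pass (limma adjusted p = 0.0538). With only probes at a detection p-value below 0.01 kept, fewer genes were tested and Orc3 passed (adjusted p = 0.0430). Orc4 had signals of 7.30, 7.54 and 7.15 in precursors, against 6.91, 7.02 and 7.21 in CCR9+ pDCs, which overlapped (log2 fold change 0.28, interval -0.05 to 0.61, adjusted p = 0.161). Orc5 had signals of 9.75, 9.78 and 9.69 in precursors, against 9.74, 9.75 and 9.93 in CCR9+ pDCs, which overlapped as well. Its log2 fold change was -0.07 with an interval of -0.29 to 0.16 (adjusted p = 0.632), and it turned to 0.19 under median scaling. The intervals of all 3 lay below that of Orc6. Orc1 had 2 probes, neither above background on any array (lowest detection p-value 0.106). Orc2 had 2 probes that were above background on 1 precursor array and 1 CCR9+ pDC array, too few to be tested.

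Cdc6 and Cdt1, which bring the helicase to the origin, both rose. Cdc6 had signals of 9.62, 9.65 and 9.36 in precursors, against 6.96, 6.95 and 7.03 in CCR9+ pDCs, a 5.92-fold difference (log2 fold change 2.57, interval 2.31 to 2.83, limma adjusted p = 1.60e-05). Cdt1 had signals of 10.63, 10.80 and 10.73 in precursors, against 8.74, 8.93 and 8.90 in CCR9+ pDCs, a 3.62-fold difference (interval 1.62 to 2.10, adjusted p = 3.04e-05). The groups were far apart for both genes, and the arrays of a group were close together. Gmnn encodes geminin, which binds Cdt1 and blocks relicensing. Its single probe was not above background on any array (lowest detection p-value 0.351), so the balance of Cdt1 and its inhibitor was not measured here.

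All 6 genes of the MCM helicase ring rose, by 3.18- to 5.22-fold, with a median log2 fold change of 1.90. By the probe used for each gene, Mcm5 had the largest difference, with signals of 13.27, 13.32 and 13.21 in precursors, against 10.95, 10.92 and 10.77 in CCR9+ pDCs. It was 5.22-fold higher in precursors (interval 2.16 to 2.61, limma adjusted p = 1.48e-05). Mcm4 had the smallest, with signals of 13.52, 13.54 and 13.51 in precursors, against 11.68, 11.92 and 11.96 in CCR9+ pDCs (3.18-fold, interval 1.42 to 1.92, adjusted p = 5.84e-05). The other 4 lay between these, with log2 fold changes of 2.03 for Mcm3, 1.91 for Mcm2, 1.90 for Mcm7 and 1.88 for Mcm6, and their intervals overlapped one another. Mcm7 had the widest interval (1.44 to 2.35); its CCR9+ pDC replicate 3 read 7.51, while replicates 1 and 2 read 6.82 and 7.00. The 3 tested probes of Mcm6 gave log2 fold changes of 1.88, 2.08 and 2.20. A second Mcm7 probe, above background on only 1 CCR9+ pDC array, gave 2.80, more than the 2.38 of Mcm5. The order of these genes therefore depends on the probe chosen.

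Genes that fire origins and complete the helicase also all rose, 8 of 8, but unequally. Gins1, a GINS subunit, had signals of 9.08, 9.42 and 9.08 in precursors, against 5.98, 6.32 and 6.24 in CCR9+ pDCs. The 8.07-fold difference (log2 fold change 3.01, interval 2.67 to 3.35, limma adjusted p = 2.12e-05) ranked 13 by log2 fold change among all 9561 genes. Gins4, a subunit of the same complex, had signals of 11.49, 11.39 and 11.42 in precursors, against 10.75, 10.77 and 10.66 in CCR9+ pDCs, a 1.63-fold difference (log2 fold change 0.71, interval 0.50 to 0.92, adjusted p = 0.00107). Gins2 and Gins3 had log2 fold changes of 2.07 and 1.07. The intervals of Gins1 and Gins2 (1.80 to 2.34) lay above those of Gins3 (0.76 to 1.39) and Gins4. Without background correction Gins1 and Gins2 had values of 1.84 and 1.08, Gins3 one of 0.49 and Gins4 one of 0.67.

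Mcm10, which helps to start unwinding, had signals of 11.44, 11.53 and 11.33 in precursors, against 8.71, 8.67 and 8.33 in CCR9+ pDCs. It was 7.26-fold higher in precursors (interval 2.54 to 3.18, limma adjusted p = 2.00e-05). A second probe, above background on every precursor array and on no CCR9+ pDC array, also rose. Cdc45, the helicase cofactor, was 5.33-fold higher (adjusted p = 1.65e-05). The kinase gene Cdc7 had a log2 fold change of 2.08 (interval 1.85 to 2.31) and Dbf4, which encodes its activating subunit, one of 1.22 (interval 0.95 to 1.50). The interval of Cdc7 lay above that of its partner, and all 3 tested probes of Dbf4 rose, with log2 fold changes from 1.15 to 1.32.

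**Figure D2:**
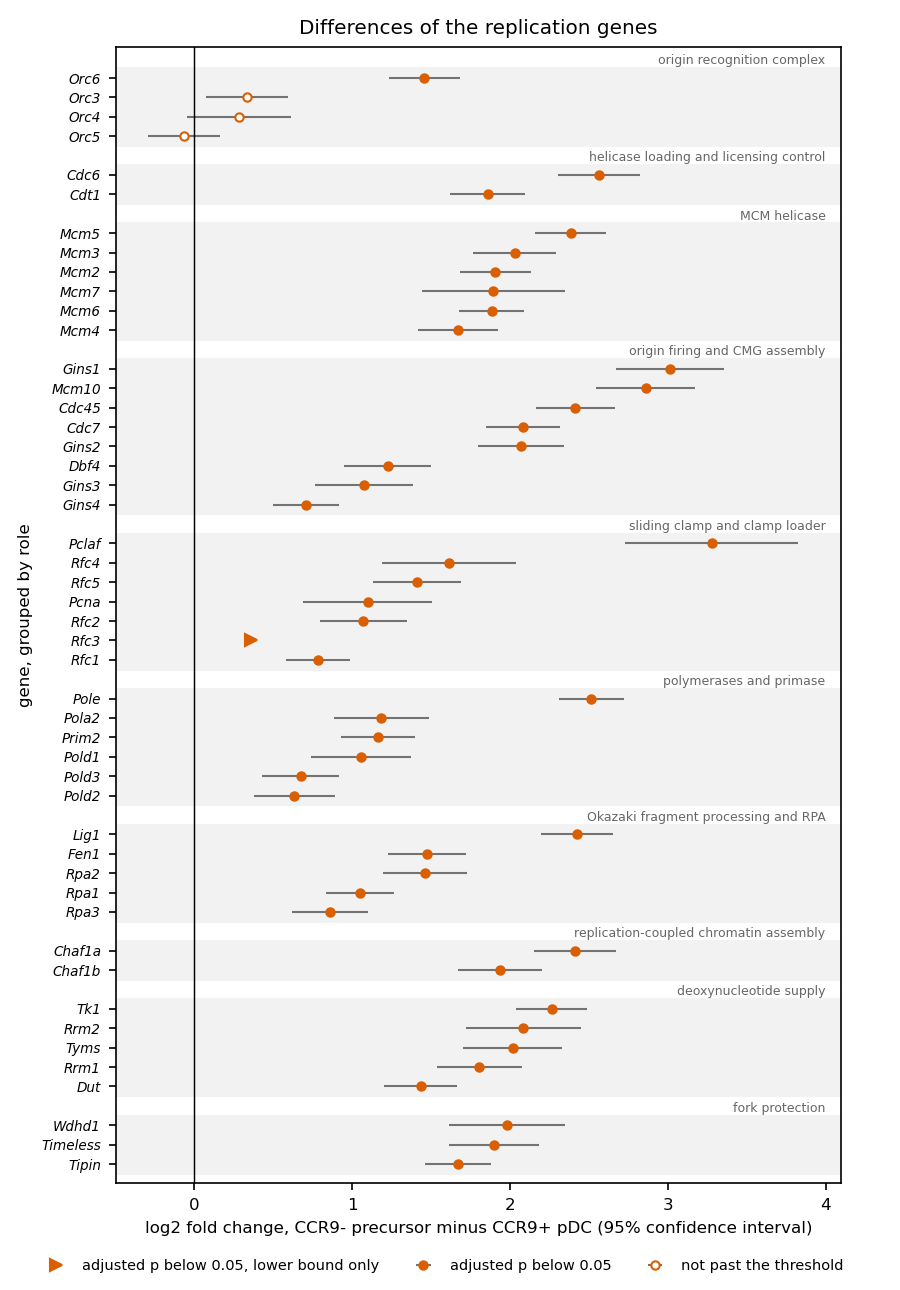
Log2 fold change, CCR9- precursor minus CCR9+ pDC (horizontal axis), of the 48 replication genes tested, grouped by role (vertical axis), with 95% confidence intervals from limma. Filled points passed the threshold; the triangle is the lower bound of Rfc3, the 3 open points are Orc3, Orc4 and Orc5, and the values run from -0.07 for Orc5 to 3.28 for Pclaf.

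Of all 48 genes Pclaf, whose product rides on the PCNA clamp, had the largest difference. Its signals were 12.62, 12.70 and 12.68 in precursors, against 9.59, 9.73 and 8.85 in CCR9+ pDCs. The 9.71-fold difference (log2 fold change 3.28, interval 2.73 to 3.83, limma adjusted p = 8.90e-05) ranked 6 by log2 fold change among all genes. CCR9+ pDC replicate 3 was lower than the other 2 of its group. Without it the log2 fold change was 2.99.

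Pcna itself, the clamp, had 1 dim probe with signals of 6.98, 7.01 and 7.02 in precursors, against 5.72, 6.29 and 5.70 in CCR9+ pDCs (2.14-fold, interval 0.69 to 1.51, limma adjusted p = 0.00304). CCR9+ pDC replicate 2 was the highest of its group. All 5 clamp loader genes rose, with log2 fold changes of 0.78 for Rfc1, 1.07 for Rfc2, 1.61 for Rfc4 and 1.41 for Rfc5. Rfc1, the large subunit, had the smallest of these 4, with signals of 11.46, 11.54 and 11.50 in precursors, against 10.70, 10.70 and 10.75 in CCR9+ pDCs; the arrays of each group lay within a narrow range and did not overlap (adjusted p = 0.000555). Rfc3 had signals of 6.00, 5.98 and 5.68 in precursors, against 5.25, 5.19 and 4.82 in CCR9+ pDCs. Being below background in all CCR9+ pDCs, Rfc3 was at least 1.28-fold higher in precursors. Its limma adjusted p of 0.00752 belongs to the fitted log2 fold change of 0.80, which uses the background values, and not to this bound.

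Among polymerase and primase genes 6 of 9 were tested and all 6 rose. Pole, the catalytic subunit of the leading-strand polymerase epsilon, had signals of 9.09, 9.22 and 9.18 in precursors, against 6.63, 6.63 and 6.67 in CCR9+ pDCs, a 5.72-fold difference (log2 fold change 2.51, interval 2.31 to 2.72, limma adjusted p = 1.15e-05). Pold2, an accessory subunit of the lagging-strand polymerase delta, had signals of 10.04, 10.24 and 9.95 in precursors, against 9.46, 9.49 and 9.38 in CCR9+ pDCs, a 1.55-fold difference (interval 0.38 to 0.89, adjusted p = 0.00446). The catalytic subunit Pold1 and the accessory subunit Pold3 had log2 fold changes of 1.05 and 0.67. The interval of Pole lay above those of all 3 polymerase delta genes, also beyond the highest of them, Pold1 (0.74 to 1.37). Pola2 and Prim2, subunits of the polymerase alpha and primase complex that starts each new strand, were 2.27- and 2.24-fold higher. Pola1, Prim1 and Pole2 had no probe above background on any array (lowest detection p-values 0.123, 0.106 and 0.217).

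All 5 genes for finishing the lagging strand and coating single-stranded DNA rose. Lig1, the ligase that seals Okazaki fragments, had signals of 10.69, 10.65 and 10.54 in precursors, against 8.27, 8.23 and 8.11 in CCR9+ pDCs (5.38-fold, interval 2.20 to 2.65, limma adjusted p = 1.46e-05). Fen1, the nuclease that trims the flaps between fragments, was 2.78-fold higher (interval 1.23 to 1.72, adjusted p = 8.86e-05). The genes of the single-strand binding protein RPA had log2 fold changes of 1.05 for Rpa1, 1.46 for Rpa2 and 0.86 for Rpa3. Rpa3 had signals of 10.45, 10.51 and 10.47 in precursors, against 9.53, 9.56 and 9.78 in CCR9+ pDCs, which did not overlap (adjusted p = 0.000871). The mean of the 3 Rpa2 probes gave 0.937 in place of 1.46, and the call was kept.

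Both genes of the chromatin assembly factor that places histones behind the fork rose. Chaf1a had signals of 9.90, 9.88 and 9.81 in precursors, against 7.28, 7.48 and 7.59 in CCR9+ pDCs (5.32-fold, limma adjusted p = 1.93e-05). Chaf1b had signals of 9.80, 9.82 and 9.72 in precursors, against 8.01, 7.68 and 7.85 in CCR9+ pDCs (3.82-fold, adjusted p = 3.80e-05). Neither overlapped between the groups. The 3 fork protection genes also rose. Wdhd1, which ties polymerase alpha to the helicase, had signals of 8.50, 8.38 and 8.56 in precursors, against 6.20, 6.55 and 6.75 in CCR9+ pDCs (3.95-fold, adjusted p = 0.000140). Timeless differed 3.73-fold. Its partner Tipin, with signals of 11.84, 11.93 and 11.84 in precursors, against 10.19, 10.25 and 10.15 in CCR9+ pDCs, differed 3.18-fold (adjusted p = 2.65e-05).

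**Figure D3:**
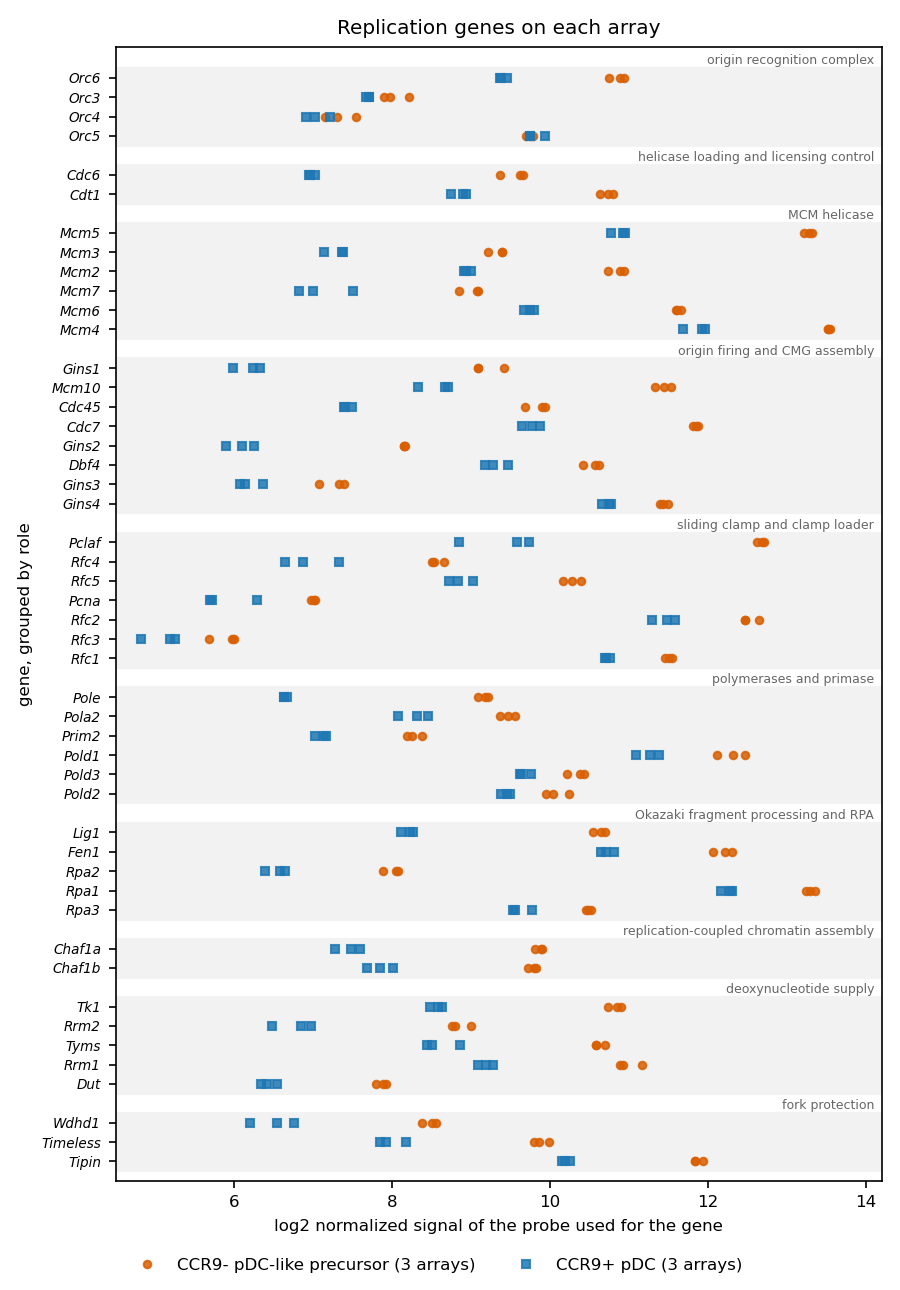
Log2 normalized signal (horizontal axis) of the probe used for each of the 48 replication genes tested (vertical axis, grouped by role) on the 3 CCR9- precursor arrays (circles) and the 3 CCR9+ pDC arrays (squares). The groups are apart for 46 genes and overlap for Orc4 and Orc5; the position of a gene along the axis also depends on its probe.

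The size of some of these differences depended on the background correction. Without it all 45 calls were kept, but 11 log2 fold changes shrank by more than 1.5 times, leaving aside Rfc3, which has only a bound. Beside Gins1, Gins2 and Gins3 these were Pcna (0.449), Rfc4 (1.01), Prim2 (0.721), Pole (1.63), Rpa2 (0.803), Rrm2 (1.32), Dut (0.758) and Wdhd1 (1.15). On the authors' processed intensities these 11 shrank likewise, and so did Mcm7, to 1.25.

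Within a group the arrays differed little beside the difference between groups. The median signal of the 48 genes was 10.15, 10.31 and 10.06 on the precursor arrays, against 8.57, 8.63 and 8.45 on the CCR9+ pDC arrays. The median of all 9561 genes was 8.23, 8.24 and 8.24 on the precursor arrays, against 8.26, 8.25 and 8.29 on the CCR9+ pDC arrays. Precursor replicate 2 was above its group's mean for 41 of the 48 genes and precursor replicate 3 for 13, by a median of 0.059 above and 0.056 below. CCR9+ pDC replicate 3 had the fewest probes above background (15254, against 16477 to 16905 on the other arrays) and the lowest mean correlation with its own group (0.976). Without that array 45 of 48 genes still rose and the median log2 fold change was 1.73.

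Deoxynucleotides are made from ribonucleotides by ribonucleotide reductase, and all 5 members of deoxynucleotide supply rose. Tk1, the thymidine kinase of dividing cells, had signals of 10.74, 10.89 and 10.85 in precursors, against 8.63, 8.58 and 8.48 in CCR9+ pDCs (4.80-fold, interval 2.04 to 2.49, limma adjusted p = 1.60e-05). Rrm2, the small reductase subunit of S phase, had signals of 8.80, 9.0 and 8.76 in precursors, against 6.85, 6.97 and 6.48 in CCR9+ pDCs (4.24-fold, interval 1.72 to 2.45, adjusted p = 0.000105). Rrm1, the large subunit gene, was 3.49-fold higher and Tyms, the thymidylate synthase gene, 4.05-fold. Dut, whose product removes dUTP, had signals of 7.80, 7.92 and 7.88 in precursors, against 6.34, 6.41 and 6.54 in CCR9+ pDCs (2.70-fold, interval 1.20 to 1.67, adjusted p = 7.76e-05). No gene of the 5 overlapped between the groups.

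Of 4 genes, picked by name, that make or limit deoxynucleotides outside S phase, 3 fell and 1 did not pass. Of all genes tested 17.6% were called lower in precursors. These 4 belong to a wider list of other deoxynucleotide genes, of which 12 were tested and 6 rose. Among those that rose was Dck (log2 fold change 1.25, limma adjusted p = 0.00993). Rrm2b, the reductase subunit used in resting cells and after DNA damage, had signals of 8.62, 8.64 and 8.55 in precursors, against 9.45, 9.46 and 9.74 in CCR9+ pDCs. It fell 1.92-fold in precursors (log2 fold change -0.94, limma adjusted p = 0.000893), with every precursor array below every CCR9+ pDC array. Tk2, the mitochondrial thymidine kinase gene, had signals of 9.88, 9.98 and 9.86 in precursors, against 10.35, 10.61 and 10.36 in CCR9+ pDCs, a log2 fold change of -0.53 (adjusted p = 0.00951). Samhd1, which degrades deoxynucleotides, had signals of 10.38, 10.31 and 10.60 in precursors, against 11.00, 10.95 and 11.15 in CCR9+ pDCs, a log2 fold change of -0.61 (adjusted p = 0.00711). Under median scaling, which moved the median of all genes to 0.191, Rrm2b still passed, while Tk2 (-0.26, adjusted p = 0.294) and Samhd1 (-0.37, adjusted p = 0.0896) did not. Dguok, the mitochondrial deoxyguanosine kinase gene, had a log2 fold change of -0.13 and did not pass (adjusted p = 0.283); under median scaling it was 0.14.

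**Figure D4:**
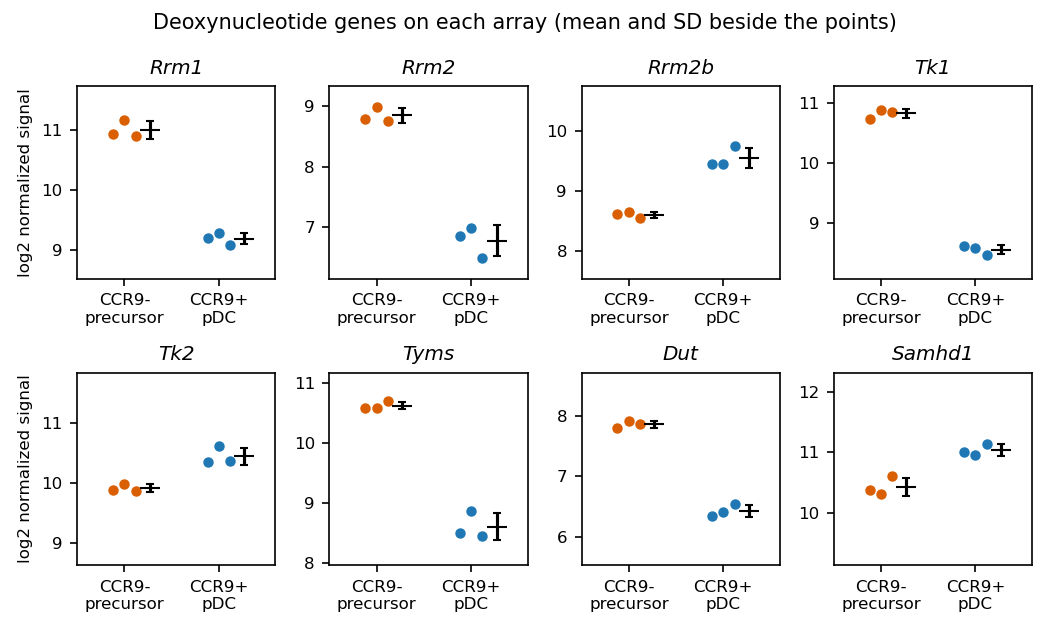
Log2 normalized signal (vertical axes, each spanning the same range of log2 units) of 8 deoxynucleotide genes on each CCR9- precursor array (left in each panel) and each CCR9+ pDC array (right), with the mean and SD of the 3 arrays beside the points. Rrm1, Rrm2, Tk1, Tyms and Dut are higher in precursors, and Rrm2b, Tk2 and Samhd1 are lower.

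Over the whole list of other deoxynucleotide genes, 12 were tested, 6 rose, 3 fell and 3 did not pass. The largest increases were those of Dctd, a deoxycytidylate deaminase gene (2.55-fold), Dck, the deoxycytidine kinase gene (2.39-fold, below background on 1 CCR9+ pDC array), Dtymk, the thymidylate kinase gene (1.80-fold), and Dctpp1, a nucleotide pyrophosphatase gene (1.69-fold). The median log2 fold change of all 12 genes tested in this list was 0.32. In purine, pyrimidine and folate synthesis 10 of 20 genes rose and none fell, with a median of 0.66; at an unadjusted p below 0.05, 14 were higher and none was lower. Shmt1, a cytosolic folate enzyme that feeds thymidylate synthesis, had signals of 8.29, 8.07 and 8.22 in precursors, against 6.27, 5.97 and 5.71 in CCR9+ pDCs (4.63-fold, limma adjusted p = 0.000101). Umps, Ppat and Mthfd2 were 2.29-, 2.29- and 2.22-fold higher. The Umps probe used was above background on only 1 CCR9+ pDC array. The Umps call was lost without any 1 precursor array (adjusted p from 0.0507 to 0.077) and without CCR9+ pDC replicate 2 (0.0693). Without background correction these calls were kept, but the log2 fold changes shrank by more than 1.5 times for Dctd (0.648 in place of 1.35), Dck (0.482 in place of 1.25), Shmt1 (1.14 in place of 2.21), Umps (0.46 in place of 1.19) and Ppat (0.504 in place of 1.19).

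Other replication factors, outside the 54 genes, mostly rose as well. Of 29 tested, 21 rose, 1 fell and 7 did not pass, with a median log2 fold change of 0.99. Among the 21, Dscc1 and Dtl were above background on no CCR9+ pDC array and passed the filter only through the precursor arrays. They have only lower bounds (1.23- and 2.14-fold) and enter the median at their fitted values. Top2a, the topoisomerase that untangles copied DNA, was 5.79-fold higher, Uhrf1, which brings maintenance methylation to new DNA, 5.31-fold, and Clspn, a fork checkpoint mediator gene, 4.97-fold. Recql4, a helicase gene of origin firing, was 4.81-fold higher and below background on 1 CCR9+ pDC array. Supt16, a subunit of the FACT histone chaperone, fell 1.87-fold (limma adjusted p = 0.00176), but the mean of its probes gave -0.12 (adjusted p = 0.463). In the list of S phase entry genes 6 of 7 tested rose and none fell, also at an unadjusted p below 0.05, with a median of 1.41. Cdk1 and Ccne2 were 4.99- and 4.57-fold higher. E2f1, a transcription factor gene of this programme, had signals of 11.62, 11.55 and 11.65 in precursors, against 10.15, 9.98 and 9.89 in CCR9+ pDCs (3.03-fold, adjusted p = 6.44e-05), and Cdc25a, a phosphatase gene that activates the kinases, was 2.65-fold higher. Without background correction the log2 fold change of Recql4 was 0.984 in place of 2.27 and that of Ccne2 1.19 in place of 2.19, with both calls kept.

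Of the 111 probes of the members 75 were kept and also tested one by one, among all 16857 probes kept. Of these 75, 66 rose, none fell and 9 did not pass, where 29.3% of all probes kept differed and 15.6% were called higher in precursors. Among the 66 was 1 probe each of Mcm10, Gins2, Rfc3, Lig1, Rrm2, Tyms and Tk1 that no CCR9+ pDC array showed above background. These probes passed the filter only through the precursor arrays, so their direction was nearly fixed in advance. Of the 18 members with more than 1 kept probe, all kept probes rose in 12. These 12 include Mcm10, Gins2, Rrm2 and Tk1, each with 1 such probe. In Orc4 and Orc5 no probe passed. In Lig1, Rpa2, Rfc4 and Tyms the brightest probe rose and a dimmer one did not pass. The dimmer Lig1 probe had signals of 5.75, 5.89 and 5.80 in precursors, against 5.56, 5.98 and 6.06 in CCR9+ pDCs, with a log2 fold change of -0.06 (limma adjusted p = 0.813), while 2 other Lig1 probes had log2 fold changes of 2.43 and 2.42. The last Lig1 probe also rose and had only background signal in CCR9+ pDCs. Which transcripts the probes of a gene cover was not analysed here. A further 30 member probes were not above background on any array.

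**Figure D5:**
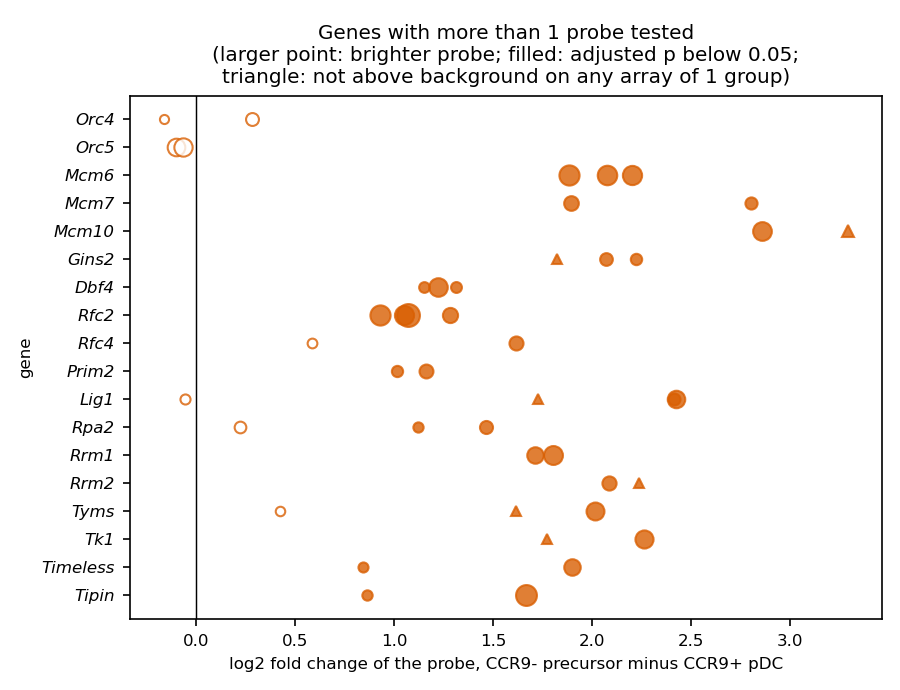
Log2 fold change, CCR9- precursor minus CCR9+ pDC (horizontal axis), of every kept probe of the 18 replication genes with more than 1 kept probe (vertical axis). Larger points are brighter probes and filled points passed the threshold, and triangles are probes not above background on any array of 1 group, which are drawn at their fitted value although only a bound is known; Lig1 has 1 circle at -0.06 and 2 at 2.42 and 2.43.

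Of 10 pDC markers tested, 1 rose, 4 fell and 5 did not pass. Klk1 fell 24.1-fold in precursors (limma adjusted p = 3.47e-06), with signals of 8.34, 8.42 and 8.32 in precursors, against 12.86, 12.83 and 13.17 in CCR9+ pDCs. Lag3 fell 6.00-fold and Smim5 2.41-fold, and Ly6d rose 1.34-fold. Among those closer between the groups, Siglech, a pDC lectin gene, had signals of 13.58, 13.54 and 13.58 in precursors, against 14.23, 14.15 and 13.83 in CCR9+ pDCs, and Tcf4, the E protein gene of pDCs, had 14.54, 14.60 and 14.74 in precursors, against 14.87, 14.82 and 14.40 in CCR9+ pDCs. The probe of Ccr9, the sorting marker, stayed at background on all 6 arrays, so it does not check the labels. Siglech was 1.42-fold lower in precursors (limma adjusted p = 0.0207) and Tcf4 did not pass. The summed normalized signals of the pDC markers, on the linear scale, ran from 77677 to 81366 in precursors, against 90071 to 103280 in CCR9+ pDCs.

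Markers of other bone marrow cells were mostly lower in precursors where they differed. Each sum below is weighted to the brightest probes of its list. Of 10 neutrophil and promyelocyte markers tested, all 10 fell, with sums from 51287 to 60205 in precursors, against 102210 to 116200 in CCR9+ pDCs. Of 7 erythroid markers tested 4 fell, with sums from 50098 to 72996 in precursors, against 65418 to 113270 in CCR9+ pDCs. Of 5 B cell precursor markers tested 2 fell, with sums from 1186 to 1350 in precursors, against 2082 to 2566 in CCR9+ pDCs; Rag2 was not above background. All 9 macrophage markers tested fell, with sums from 880 to 975 in precursors, against 30173 to 43315 in CCR9+ pDCs. The precursor sums include background signal. C1qa was above background on no precursor array, so it has only a bound (at least 7.64-fold lower). C1qb, C1qc and Spic were above background on 2 precursor arrays and Mertk on 1. Cd5l was not above background on any array. All 7 basophil and mast cell markers tested fell, with sums from 1913 to 2515 in precursors, against 5657 to 7483 in CCR9+ pDCs. Of 7 conventional dendritic cell markers tested 2 rose and 4 fell, and Xcr1 was not above background. The 2 that rose were Itgax (2.41-fold) and Zbtb46, which no CCR9+ pDC array showed above background and which was at least 3.88-fold higher. The 4 that fell were Batf3, Cd209a, Sirpa and Clec10a. The sums ran from 9781 to 10969 in precursors, against 18140 to 20210 in CCR9+ pDCs, with Sirpa the brightest probe in them. Of 5 T and NK cell markers tested 2 fell, with sums from 5812 to 6258 in precursors, against 5111 to 5640 in CCR9+ pDCs. The brightest probe in these sums, that of Cd8b1, did not pass (limma adjusted p = 0.116), and neither did Thy1. Ncr1 and Klrb1c were not above background. The part of these cells in the replication gene signals was not tested.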

How the data were processed

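Sorted bone marrow cells were profiled on 6 single-colour Illumina expression arrays, 3 per group. The authors deposited a non-normalized table, used here, with a summarized intensity and a detection p-value for each of 45281 probes and each array, per the file headers. They also deposited processed intensities, which served as an alternative and whose normalization no label or header states. BeadStudio and lumi are the tools named in the submitters' processing notes.

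In R 4.3.3 with limma 3.58.1, intensities were background corrected from the detection p-values (neqc, offset 16), quantile normalized and put on the log2 scale. A probe was kept if 3 or more of its 6 detection p-values lay below 0.05 (16857 probes), and an array with such a value is called above background. The platform annotation gave 34885 probes 1 symbol, 18 several and 10378 none, and no gene was named from a probe with several. Symbols were updated by Entrez identifier to RefSeq GRCm38.p6 (34807 probes). The brightest kept probe stood for a gene. The 9561 genes were tested with lmFit and eBayes (two-sided) and Benjamini-Hochberg adjustment over all of them, and the steps were tested on simulated data. The number of arrays limits the precision.

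The member genes, the pathway and marker lists and the tests were chosen with earlier results of these data known. Named genes were, for each role, the largest, the smallest and all that did not pass, and, for each pathway list, up to 4 called genes with the largest change in each direction, with Rrm2b, Samhd1, Tk2 and Dguok; other genes shown with values were chosen after these were seen. Alternatives for background, scaling, filter, probe choice, variance prior, replicate block and left-out arrays were tried; leaving out both arrays numbered 3 was added after seeing the data. Promoter sequences are RefSeq's.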

Additional observations from a re-analysis of the deposited data

How the results depend on the processing

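Of the 54 replication genes, 44 or 45 were called higher and 0 lower under each of 17 alternatives. Rfc3 no longer passed the filter on dim probes when 1 precursor array was left out, without both arrays numbered 3 and at a detection p-value below 0.01, where Orc3 passed in its place. The median log2 fold change of these genes, 1.67 as reported, was 1.246 on the authors' processed table, 1.286 with no background correction, 1.446 with the mean of probes, 1.469 with no filter on dim probes (all 54 genes), 1.894 with median scaling and 1.798 without both arrays numbered 3. Leaving out 1 array at a time gave medians from 1.623 to 1.729. In the same way the number of genes differing ran from 2368 to 3436, with 1119 to 1893 higher and 1249 to 1543 lower, and of probes from 3136 to 5207, with 1509 to 2972 higher and 1627 to 2235 lower. The low ends for genes and probes higher came without precursor replicate 2 and the high ends without CCR9+ pDC replicate 3. Median scaling called 986 genes and 1382 probes lower, 68.3% of the calls being higher against 50.8%, with an all-gene median of 0.191, and it left 1 other deoxynucleotide gene lower in place of 3. With the mean of probes 0 other replication factors were lower. Values whose sign turned were those of Orc5 (0.188 with median scaling, 0.02 without both arrays numbered 3) and Dguok (0.143 with median scaling), none of which passed in either setting. With the replicate number as a block 3361 genes differed, 45 members were higher and the members' median was 1.67. The deviations of same-numbered arrays correlated at 0.350, 0.0443 and 0.242. Precursor replicates 1 and 3 correlated best with their own number, and precursor replicate 2 marginally better with CCR9+ pDC replicate 3 (0.061). These values do not settle whether same-numbered arrays share an isolation. The sources do not state it, so the numbers were not taken as pairs in the main fit. The cause of these changes was not tested. On the authors' processed table the log2 fold changes of Recql4 (0.959), Ccne2 (1.14), Dctd (0.622), Dck (0.463), Shmt1 (1.09), Umps (0.425) and Ppat (0.469) were also over 1.5 times smaller, with their calls kept. Signal near background limits the values of the dim probes, among them Rfc3 and Pcna.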
